A study of Homo sapiens with 6 samples.

Results

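Collagen genes are described here in human lung fibroblasts with a Ras oncogene switched on, with and without depletion of a long noncoding RNA, sin-lncRNA. The members were all rows of the deposited table typed as protein coding whose symbol is COL, a number, A and a number, which gave 43 of the 57819 genes listed. They were grouped as 11 fibrillar collagens, 6 basement membrane collagens, 10 FACIT collagens (fibril-associated collagens with interrupted triple helices) and 16 others. Both groups were IMR90 ER:Ras cells given 200 nM 4OHT for 3 days. IMR90 cells are lung fibroblasts kept as an established human cell line. ER:Ras is a Ras oncogene joined to an estrogen receptor domain that 4OHT (4-hydroxytamoxifen) switches on, a system used to drive cells into senescence. Whether the cells of either group were senescent at this time was not examined here. The control group received scrambled siRNA and the knockdown group siRNA against sin-lncRNA, with 3 libraries of polyA RNA in each. No untreated cells enter the comparison, so every value below is from cells exposed to 4OHT, and all libraries come from 1 cell line. The comparison sets collagen expression in cells given the siRNA against sin-lncRNA beside that in cells given the scrambled siRNA. The labels name no other siRNA against sin-lncRNA and no rescue. Loss of sin-lncRNA and effects of the siRNA on other targets therefore cannot be told apart.

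Collagens are secreted proteins whose chains wind into triple helices. The fibrillar types I, III and V build the tensile fibrils of the lung interstitium, type IV forms the sheet-like network of basement membranes, and FACIT collagens sit on the surface of fibrils. Chains are hydroxylated and folded in the endoplasmic reticulum, trimmed after secretion and crosslinked by lysyl oxidases, and fibroblasts are the main source of type I collagen in connective tissue.

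Reads in genes ran from 30271192 to 50913672 in controls and from 22117324 to 27882280 in knockdowns, which leaves each knockdown library with fewer reads than any control. The targeted sin-lncRNA stood at 3.70, 4.73 and 4.09 RPM (reads per 1000000 reads in genes, on the authors' scaling) in controls and at 0.493, 0.640 and 0.534 RPM in knockdowns, 13.3% of the control mean. All 8 fibroblast markers were tested, and their summed level was 4394 to 4456 RPM in controls and 3673 to 3804 RPM in knockdowns, with 4 called higher and 3 lower. VIM held most of that sum, at 3197 RPM in controls and 2430.3 RPM in knockdowns. PDGFRA, THY1, FAP and LUM were the 4 called higher. The 3 called lower were VIM (log2 -0.40), PDGFRB (308 against 200 RPM, log2 -0.62) and DCN (120 against 97.3 RPM, log2 -0.30). S100A4 was not called. Summed markers of other cell types were 4.35 to 5.10 against 3.07 to 3.63 RPM for epithelium (KRT5 at 0 in all 6 libraries), 1.70 to 1.90 against 2.29 to 2.71 RPM for endothelium, 0.133 to 0.206 against 0.128 to 0.249 RPM for leukocytes, 118 to 119 against 101 to 110 RPM for smooth muscle and 133 to 169 against 117 to 124 RPM for chondrocytes, nearly all of the last from SOX9. The endothelial marker PECAM1 was not found among the listed genes, and VWF, at 1.76 against 2.37 RPM, held most of the endothelial sum. ACTA2, at 94.0 against 85.8 RPM, held most of the smooth muscle sum. Fewer cells of a type and less RNA per cell cannot be told apart in these bulk libraries. The labels do not say that the libraries came from separate cultures, so p-values measure only the spread between these libraries, which may be technical.

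Of the 43 collagen genes, 33 had a mean of at least 10 normalised reads and were tested. Of these, 14 were higher and 8 lower in knockdowns (limma, Benjamini-Hochberg adjusted p under 0.05 over all genes tested), which is 66.7% of those tested. The same test called 41.0% of all 19048 genes tested and 48.6% of protein-coding genes; 17.5% of all genes were called higher and 23.5% lower. The median log2 fold change was 0.16 for the tested collagens and -0.04 for all genes tested. Changes of at least 1 on the log2 scale that passed the test were found in 8 of the 33 collagens (24.2%), against 2.95% of all genes. The control and knockdown libraries did not overlap for 24 of the 33 (72.7%), against 51.1% of all genes.

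Of the 10 fibrillar collagens tested, 7 were higher, 2 lower and 1 not called, with a median of 0.59. The 4 basement membrane collagens tested had 3 genes higher and 1 lower (median 0.65). The 8 FACIT collagens tested held 1 higher, 3 lower and 4 not called (median 0.01), and the 11 others held 3 higher, 2 lower and 6 not called (median 0.16). For comparison, the same test called 41.0% of all genes tested and 48.6% of protein-coding genes. The fibrillar and basement membrane classes stood above these shares, and the FACIT and other classes near them. Differences between the classes were not tested.

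**Figure D1:**
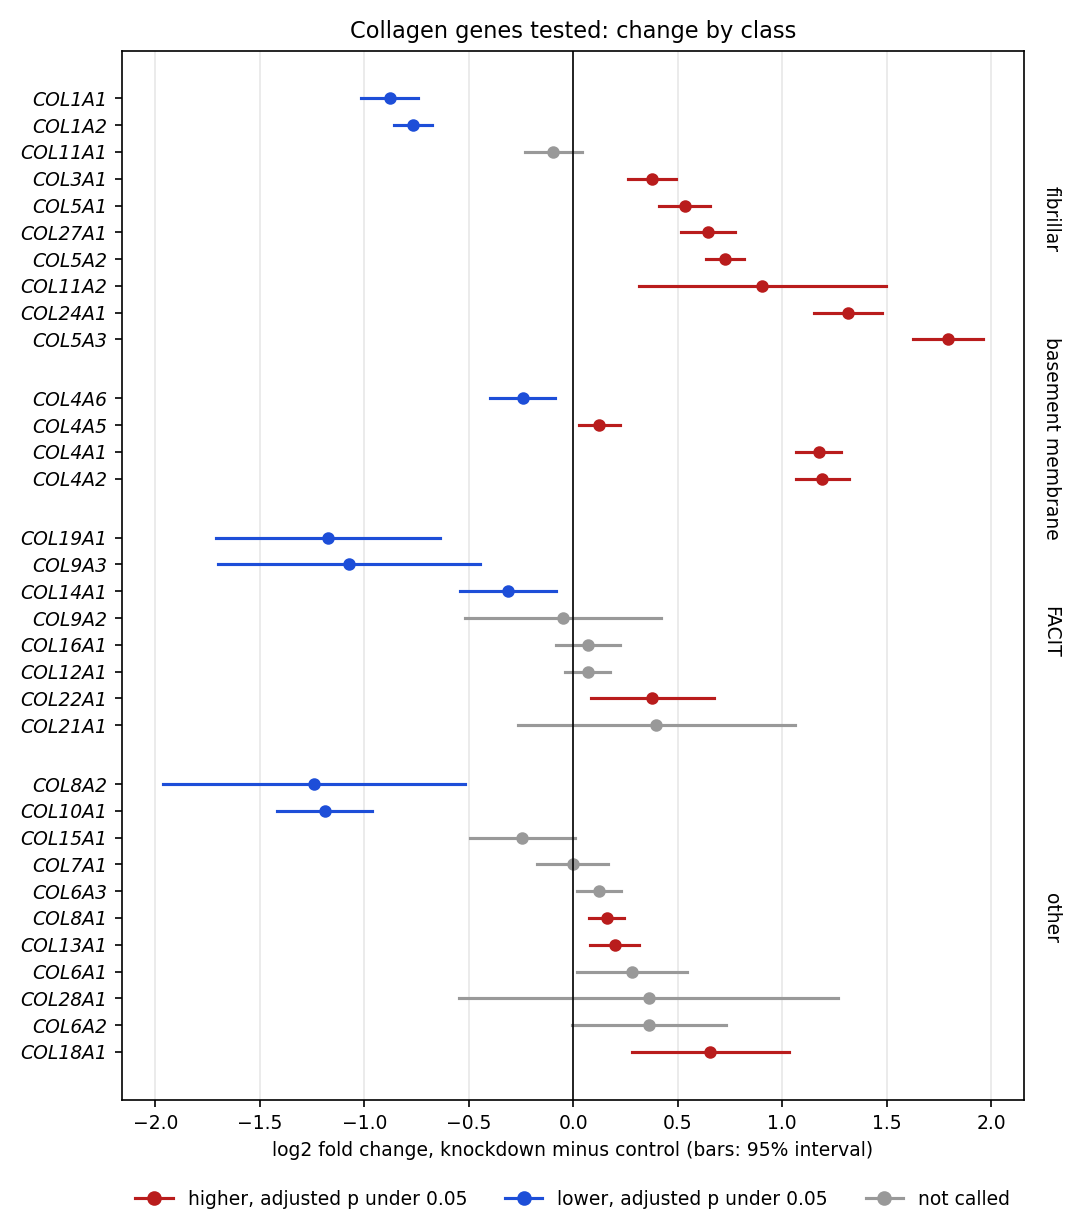
Log2 fold change (knockdown minus control) of the 33 tested collagen genes with 95% intervals, ordered within each class; red points are higher, blue points lower and grey points not called at an adjusted p of 0.05. COL5A3, at 1.79, lies farthest to the right, and COL1A1 and COL1A2 are the 2 fibrillar genes on the lower side that were called.

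Among the fibrillar collagens, the genes of type I collagen, the main fibril protein, fell while those of types III and V rose. COL1A1 (chr17:48260650-48278993 in hg19, minus strand), which encodes the alpha 1 chain of type I, measured 7037, 6125 and 6690 RPM in control replicates 1 to 3. In the knockdown replicates it measured 3419, 3848 and 3529 RPM. The lowest control thus lay far above the highest knockdown, and COL1A1 fell by 0.88 on the log2 scale (SE 0.06, limma adjusted p = 2.0e-06), or by 45.6%.

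COL1A2 (chr7:94023873-94060544, plus strand), on another chromosome, encodes the alpha 2 chain of the same protein. Its levels were 3797, 3659 and 3628 RPM in controls and 2206, 2173 and 2124 RPM in knockdowns. The groups again did not overlap, and COL1A2 fell by 0.77 (SE 0.04, limma adjusted p = 3.8e-07), or by 41.3%. Per kilobase of transcript, COL1A1 stood above COL1A2 by a ratio of 1.44 ± 0.08 in controls and 1.34 ± 0.09 in knockdowns (SD, n = 3). That ratio moved by -0.11 on the log2 scale (exact permutation test, two-sided p = 0.2, adjusted p = 0.4 over 6 chain pairs), where 0.1 is the smallest p that 3 libraries against 3 can give.

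COL3A1 encodes type III collagen, which forms fibrils together with type I in extensible tissue. It was at 1670, 1484 and 1511 RPM in controls and at 1935, 2072 and 2039 RPM in knockdowns, with no overlap. COL3A1 rose by 0.38 (SE 0.05, limma adjusted p = 0.00023).

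Type V collagen, which starts fibrils and limits their width, is built from chains of 3 genes, and all 3 rose. COL5A1 was at 606, 544 and 562 RPM in controls and at 769.8, 869 and 842 RPM in knockdowns, a change of 0.53 (SE 0.06, limma adjusted p = 3.0e-05). For COL5A2 the levels were 471, 490.3 and 489 RPM against 775, 796 and 829 RPM, a change of 0.73 (SE 0.04, limma adjusted p = 5.0e-07). Groups were apart for both genes. The per-length ratio of COL5A1 to COL5A2 was 0.989 in controls and 0.864 in knockdowns (exact permutation test, two-sided p = 0.1, adjusted p = 0.3).

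COL5A3 (chr19:10070237-10121147 in hg19, minus strand), the third type V gene, had the largest rise of any collagen tested. Its levels were 36.6, 35.6 and 39.5 RPM in controls and 114, 139.5 and 135 RPM in knockdowns. Every knockdown library was far above every control, and the level was 3.46-fold higher (log2 1.79, SE 0.08, limma adjusted p = 7.1e-08). Even so, per kilobase COL5A3 remained the least abundant of the type V genes, at 21.0 against 97.6 RPKM for COL5A1 and 113 RPKM for COL5A2 in knockdowns (RPKM, reads per kilobase of the longest coding transcript and per 1000000 reads). The 250 bases before its start are shown because this gene moved most. They are from RefSeq on GRCh38.p14, chr19:10010505-10010754, minus strand, with a CCAAT box and a GC box (GGGCGG) in capitals.
COL5A3: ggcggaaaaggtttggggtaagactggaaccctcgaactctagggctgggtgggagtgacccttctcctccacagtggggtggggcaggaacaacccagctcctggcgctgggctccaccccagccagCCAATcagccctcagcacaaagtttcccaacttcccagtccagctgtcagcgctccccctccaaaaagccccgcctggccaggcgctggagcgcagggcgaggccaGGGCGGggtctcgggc

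The CCAAT box, the GC box and the letters TATAAA, taken as a TATA box, were searched on both strands in windows from 250 bases before to 50 bases after each start, and none of the 3 contains another. The CCAAT box was found in 34.6% of all 35116 windows, the GC box in 45.0% and the TATA box in 11.5%. Among 43 windows of the 31 collagen genes with an entry, the shares were 32.6%, 55.8% and 18.6%. COL1A1, COL1A2, COL3A1, COL5A2 and COL6A1 were among the genes with no entry, so these shares do not cover them. The COL5A3 stretch holds no TATA box by these letters. A match in these letters is a description and does not show that a factor binds.

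Among fibrillar genes with fewer reads, COL24A1 and COL27A1 rose. COL24A1, which encodes a fibrillar collagen best known from bone and cornea, was at 8.22, 8.32 and 7.55 RPM in controls and at 19.1, 20.8 and 20.1 RPM in knockdowns (log2 1.32, SE 0.07, limma adjusted p = 5.0e-07). COL27A1, a fibrillar collagen of cartilage, was at 37.5, 34.7 and 34.8 RPM against 53.0, 59.1 and 55.2 RPM (log2 0.64, SE 0.06, limma adjusted p = 1.1e-05). Neither gene's groups overlapped.

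Of the genes of type XI, a cartilage fibril collagen, 1 was called. COL11A2 was called higher from 12 to 29 reads a library, at 0.734, 0.400 and 0.556 RPM in controls and 1.03, 1.24 and 0.855 RPM in knockdowns (log2 0.90, SE 0.27, limma adjusted p = 0.020). Its call did not hold on leaving out control replicate 2 (limma adjusted p = 0.062), control replicate 3 (0.055) or knockdown replicate 2 (0.073). COL11A1 was at 25.0, 28.1 and 25.4 RPM against 24.2, 24.7 and 24.4 RPM and was not called (log2 -0.10, 95% interval -0.23 to 0.04), although its groups did not overlap; with a correction for GC content and transcript length its value was -0.17 and was called (limma adjusted p = 0.023). COL2A1, the type II gene of cartilage, had 0 to 3 reads a library and was not tested.

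**Figure D2:**
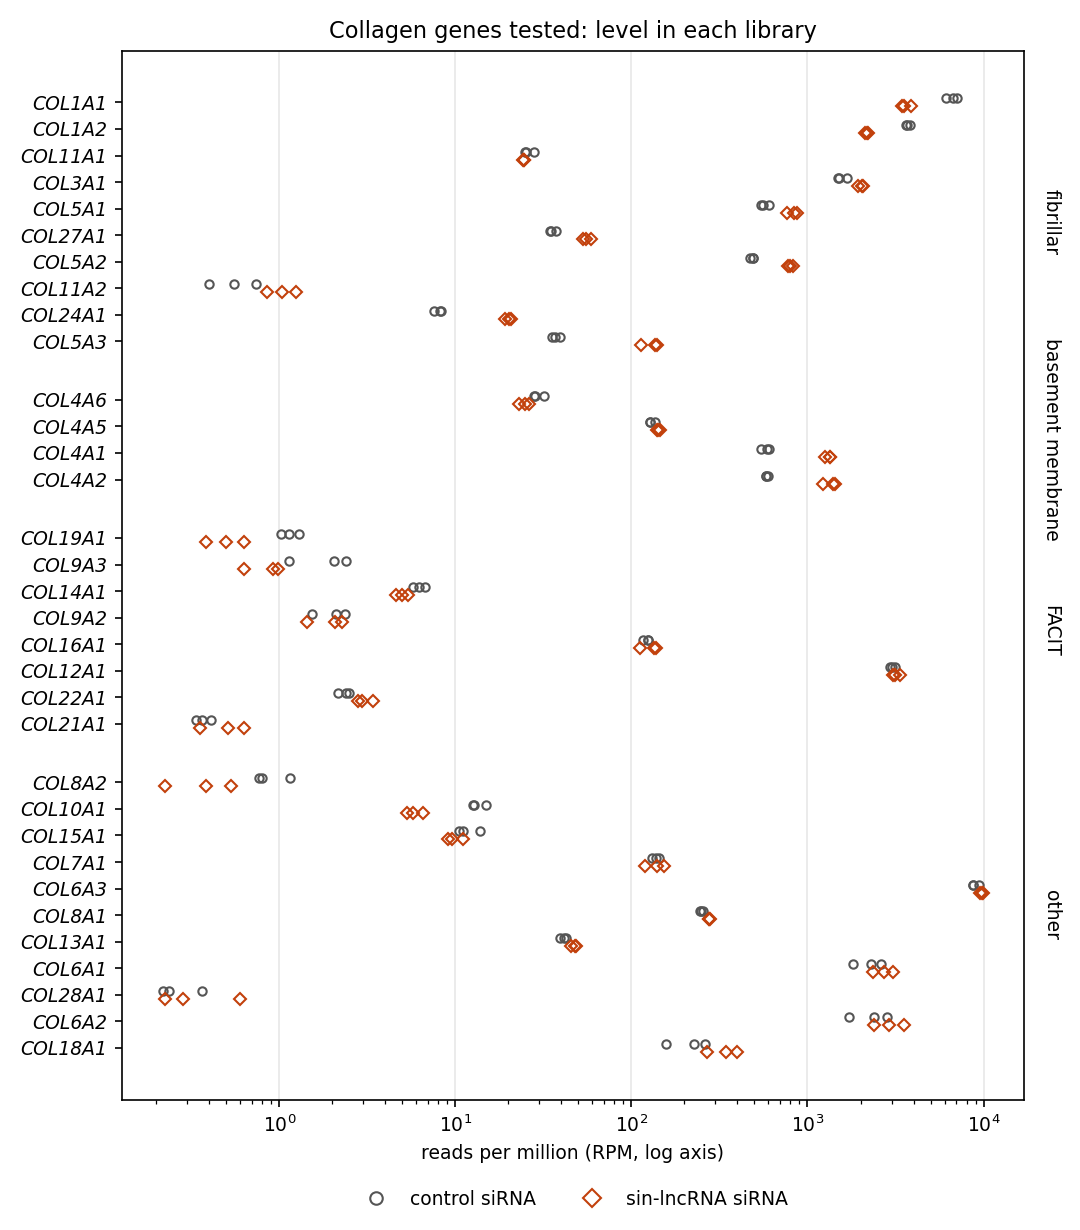
Level of the 33 tested collagen genes in each of the 6 libraries, in RPM on a log axis and grouped by class; circles are single control libraries and diamonds single knockdown libraries. COL1A1 and COL1A2 lie lower and COL4A1, COL4A2 and COL5A3 higher in all 3 knockdown libraries than in any control, while COL6A1, COL6A2 and COL12A1 overlap.

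In the basement membrane class the rise lay in 2 genes, COL4A1 and COL4A2, which encode the chains of the type IV network found under most epithelia and vessels. COL4A1 was at 547, 607 and 591 RPM in controls and at 1255, 1348 and 1338 RPM in knockdowns. COL4A2 was at 582, 580.1 and 599.9 RPM in controls and at 1219, 1430 and 1387 RPM in knockdowns. In both genes the lowest knockdown library was above the highest control. COL4A1 was 2.26-fold higher (log2 1.18, SE 0.05, limma adjusted p = 7.1e-08) and COL4A2 2.29-fold higher (log2 1.19, SE 0.06, limma adjusted p = 1.5e-07).

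The ratio of these chains per kilobase was 0.973 ± 0.052 in controls and 0.961 ± 0.044 in knockdowns (SD, n = 3). It moved by -0.02 on the log2 scale, within the spread of the libraries (exact permutation test, two-sided p = 0.8, adjusted p = 0.8). The genes lie head to head on chromosome 13: in hg19, COL4A1 spans chr13:110801318-110959496 on the minus strand and COL4A2 spans chr13:110958159-111165374 on the plus strand. Their spans share 1338 bases, and the strand setting of the counting was not given in the sources used here, so reads from that stretch cannot be assigned with certainty. The RefSeq starts on GRCh38.p14 leave a gap between the genes, unlike the overlapping hg19 spans of the table. The stretch between the RefSeq starts is shown because the 2 genes share it and moved by nearly the same amount. It runs for 126 bases on GRCh38.p14, chr13:110307158-110307283, is written on the plus strand and has 80.2% G and C; the CCAAT box and GC box are in capitals, and no TATA box is among its letters.
COL4A1 to COL4A2: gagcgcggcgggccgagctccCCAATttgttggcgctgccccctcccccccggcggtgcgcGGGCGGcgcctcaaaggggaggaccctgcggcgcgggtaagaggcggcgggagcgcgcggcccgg

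Levels of the other type IV genes were closer between the groups. COL4A5, whose chain pairs with COL4A6 or with COL4A3 and COL4A4 in other basement membranes, was at 136, 128 and 127 RPM in controls and at 139, 145 and 142 RPM in knockdowns (log2 0.12, limma adjusted p = 0.042). COL4A6 was at 31.7, 27.9 and 28.2 RPM against 23.1, 26.3 and 24.8 RPM and was called lower (log2 -0.24, limma adjusted p = 0.019). Neither call held in every setting. That of COL4A5 was lost without control replicate 2 (adjusted p = 0.106) or 3 (0.167), without knockdown replicate 2 (0.126) or 3 (0.103), with a GC and length correction (0.134), with no filter (0.079), with thinned reads (0.087) and with no intensity trend (0.118). That of COL4A6 was lost without control replicate 1 (0.062), knockdown replicate 1 (0.066) or knockdown replicate 3 (0.054), and with no intensity trend (0.062). COL4A6 also overlaps ATG4A on the opposite strand, a gene with 71.9% of its reads. COL4A3 and COL4A4 had 0 to 3 reads a library and were not tested.

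Type VI collagen, the beaded microfilament protein, was the most abundant collagen by reads, and none of its 3 tested genes was called. COL6A3 was at 8728, 9378 and 8723 RPM in controls and at 9865, 9552 and 9799 RPM in knockdowns. All 3 knockdown libraries lay above all 3 controls, by little: the log2 change was 0.12 (95% interval 0.02 to 0.23, limma adjusted p = 0.063). It was called higher under several settings, without control replicate 2 among them (log2 0.16, adjusted p = 0.025), and called lower after quantile normalisation (-0.11, adjusted p = 0.018), so its direction depends on the scaling.

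COL6A1 and COL6A2, neighbours on chromosome 21 that encode the shorter chains, spread more widely. COL6A1 was at 2629, 1817 and 2287 RPM in controls and at 2370, 3057 and 2705 RPM in knockdowns. COL6A2 was at 2812, 1711 and 2374 RPM in controls and at 2373, 3539 and 2903 RPM in knockdowns. The groups overlapped in both, with control replicate 2 the lowest and knockdown replicate 2 the highest library. The log2 changes were 0.28 for COL6A1 (95% interval 0.02 to 0.55, limma adjusted p = 0.085) and 0.36 for COL6A2 (95% interval -0.00 to 0.73, limma adjusted p = 0.105).

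G and C make up 63.5% of the COL6A1 transcript and 66.4% of the COL6A2 transcript. Over all genes, GC content and length accounted for 14.6% of the variance of control replicate 1 about its group mean and 13.3% of that of knockdown replicate 1, against 1.43% to 5.37% in the other 4 libraries. With a correction for both, COL6A1 was called higher at 0.41 (limma adjusted p = 1.9e-05) and COL6A2 at 0.54 (limma adjusted p = 4.1e-06). Both were also called without control replicate 1 (0.40, adjusted p = 0.015, and 0.52, adjusted p = 0.024) or without knockdown replicate 1 (0.37, adjusted p = 0.042, and 0.51, adjusted p = 0.040). COL6A1 was called under median of ratios (0.31, adjusted p = 0.048) and quantile normalisation (0.34, adjusted p = 0.031) as well, and both genes with no filter. Without control replicate 2 the values were 0.14 and 0.17, and without knockdown replicate 2 they were 0.19 and 0.22. COL6A5 and COL6A6 had 0 to 3 reads a library.

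COL18A1, the multiplexin of basement membranes whose end fragment is endostatin, had its lowest control in replicate 2 and its lowest and highest knockdowns in replicates 1 and 2, as COL6A1 and COL6A2 did, and G and C at 67.2%. It was at 263, 157 and 227 RPM in controls and at 269, 396 and 342 RPM in knockdowns. The lowest knockdown library lay just above the highest control, and COL18A1 was called higher (log2 0.66, SE 0.17, limma adjusted p = 0.010). The call was lost in a fit with no intensity trend (adjusted p = 0.076) and in one robust to outlying genes (adjusted p = 0.120); with the GC and length correction the change was 0.79 (limma adjusted p = 4.6e-08). COL15A1, the other multiplexin, was not called (9.12 to 13.8 RPM, log2 -0.24, 95% interval -0.49 to 0.01), and its value depended on single libraries: -0.12 without control replicate 1 (adjusted p = 0.365) and -0.32 without control replicate 2 (adjusted p = 0.042, called lower). It was also called with no filter (adjusted p = 0.039).

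The network-forming collagens with short chains split. COL10A1, the type X gene best known from hypertrophic cartilage, was at 12.6, 14.9 and 12.7 RPM in controls and at 6.54, 5.34 and 5.74 RPM in knockdowns. The groups were well apart, and COL10A1 fell by 1.19 (SE 0.10, limma adjusted p = 8.3e-06). It lies inside NT5DC1 on the opposite strand, a gene with 139% of its reads. COL8A2, a chain of the type VIII network of vessel walls and cornea, fell by 1.24 (SE 0.33, limma adjusted p = 0.011) from 39, 23 and 40 reads in controls to 5, 9 and 15 reads in knockdowns, or 1.15, 0.766 and 0.795 RPM to 0.224, 0.384 and 0.534 RPM.

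COL8A1, the more abundant type VIII gene, was higher by a small margin, at 254, 244 and 248 RPM against 281, 276 and 277 RPM (log2 0.16, limma adjusted p = 0.0066; 0.10 with the GC and length correction, adjusted p = 0.038). The ratio of COL8A1 to COL8A2 per kilobase was 229 ± 43 in controls and 633 ± 269 in knockdowns (SD, n = 3). The change in log2 ratio gave an exact permutation test two-sided p of 0.1 (adjusted p = 0.3). The knockdown ratios rest on 5, 9 and 15 reads of COL8A2. The groups did not overlap in that ratio.

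The most abundant FACIT collagen was not called. COL12A1, which binds to type I fibrils, was at 3157, 3019 and 2932 RPM in controls and at 3358, 3075 and 3131 RPM in knockdowns. The groups overlapped, and the log2 change was 0.07 (95% interval -0.04 to 0.18, limma adjusted p = 0.280); it was below 0 after quantile normalisation and after the GC and length correction. COL16A1, another fibril-associated collagen of fibroblasts, was at 113 to 137 RPM (log2 0.07, 95% interval -0.08 to 0.22) and was called higher only with the GC and length correction (0.17, adjusted p = 0.014) or without knockdown replicate 1 (0.16, adjusted p = 0.027).

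The FACIT genes that were called had few reads. COL9A3, a chain of the cartilage type IX collagen, was at 2.41, 1.13 and 2.05 RPM in controls and at 0.628, 0.982 and 0.926 RPM in knockdowns (log2 -1.07, SE 0.28, limma adjusted p = 0.011), and lost its call without control replicate 3 (adjusted p = 0.053). Its span meets that of TCFL5 on the opposite strand over 45 bases, and TCFL5 had 741% of its reads. COL19A1, a rare collagen of basement membrane zones, fell from 1.03, 1.299 and 1.13 RPM to 0.628, 0.384 and 0.499 RPM (log2 -1.17, SE 0.24, limma adjusted p = 0.0028). No overlap was seen in either gene.

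COL14A1, which coats mature fibrils, was called lower (4.63 to 6.70 RPM over the 6 libraries, log2 -0.31, limma adjusted p = 0.032). That call was lost without control replicate 1 (adjusted p = 0.099) or 3 (0.093), without knockdown replicate 1 (0.065) or 3 (0.107), and after quantile normalisation (0.058) or thinning of reads to equal totals (0.057). COL22A1, a collagen of tissue junctions, was called higher (2.14 to 3.38 RPM, log2 0.38, limma adjusted p = 0.043), but the call was lost on leaving out any 1 library other than knockdown replicate 2 (adjusted p from 0.051 to 0.143) after thinning (0.153) and with no filter (0.053). COL9A2 and COL21A1 were not called, at log2 values of -0.05 (95% interval -0.52 to 0.42) and 0.40 (-0.26 to 1.06); the counts of COL21A1 overlap a sense intronic RNA with 136% of its reads.

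The remaining members moved little or were barely detected. COL13A1, which spans the cell membrane at adhesion sites, was at 39.5 to 42.7 RPM in controls and 45.2 to 48.7 RPM in knockdowns (log2 0.20, limma adjusted p = 0.013), and was not called without knockdown replicate 3 (adjusted p = 0.059). COL7A1, which forms the anchoring fibrils of epithelial basement membranes, was at 120.1 to 153 RPM with a log2 change of -0.00 (95% interval -0.17 to 0.17), and COL28A1 was at 0.219 to 0.598 RPM (log2 0.36, 95% interval -0.55 to 1.27).

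The 10 genes not tested were COL2A1, COL4A3, COL4A4, COL6A5, COL6A6, COL9A1, COL17A1, COL20A1, COL23A1 and COL25A1. COL20A1 had 0 reads in every library, a count that, from counting error alone, allows up to 3. The membrane collagen COL25A1 had 2, 4 and 5 reads in controls and 5, 7 and 13 reads in knockdowns, from shallower libraries. COL26A1 carries another gene type in the table and is outside the rule.

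Reads from collagen genes as a whole held nearly the same share of each library in both groups while their makeup shifted. All 43 genes together took 3.32%, 3.02% and 3.11% of reads in controls and 3.10%, 3.34% and 3.22% in knockdowns, so the groups overlapped. Type I went from 1.02% ± 0.06 to 0.580% ± 0.021 of all reads (SD, n = 3), and type IV went from 0.132% ± 0.002 to 0.284% ± 0.016. Type VI went from 1.34% ± 0.07 to 1.55% ± 0.07, type V from 0.108% to 0.177% and type III from 0.155% to 0.203%. These shares were not tested as sums; they restate the genes above on a common scale.

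Within collagen reads, type I made up 32.5% ± 0.32 in controls and 18.02% ± 0.32 in knockdowns (SD, n = 3). Type VI made up 42.6% and 48.1%, type IV 4.20% and 8.83%, type V 3.45% and 5.49%, type III 4.91% and 6.30%, type XII 9.59% and 9.98%, and the other 25 genes 2.76% and 3.298%. These are parts of a whole, so a lower share of type I raises the other shares even where genes did not change. The tested type VI genes and COL12A1 were not called. Ordered by reads among all genes, COL1A1 stood at place 6 in controls and 15 in knockdowns and COL1A2 at 12 and 34. COL4A2 went from place 179 to 54, COL4A1 from 183 to 58 and COL5A3 from 5418 to 1481.

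**Figure D3:**
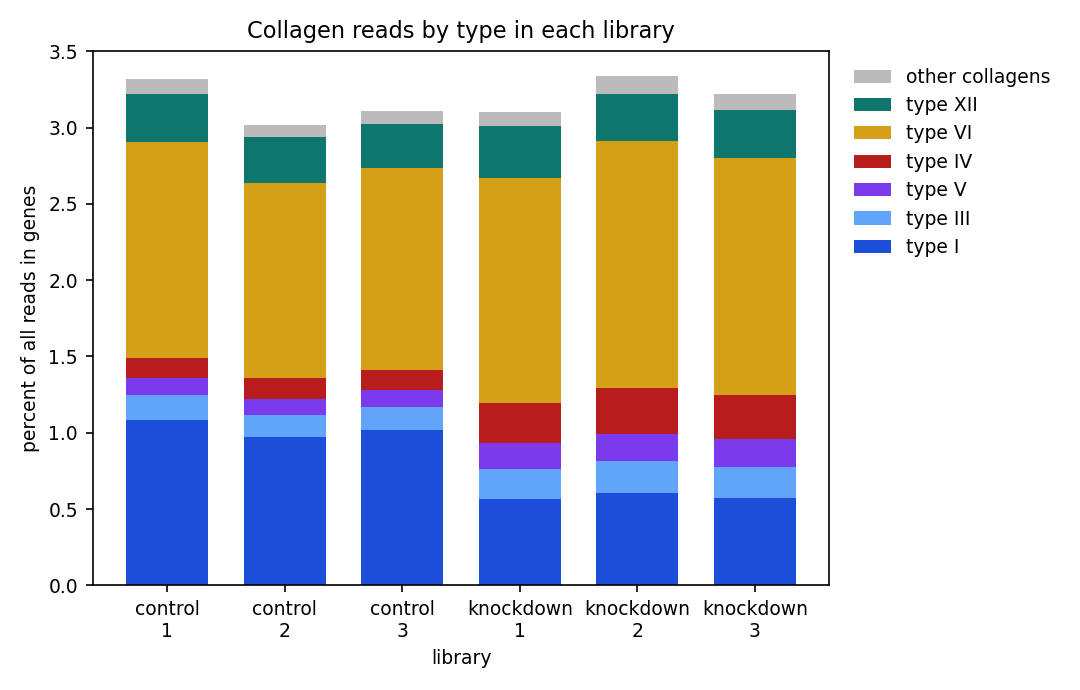
Share of all reads, in percent, taken by collagen types in each of the 6 libraries, stacked by type. The total stays between 3.02% and 3.34% in both groups, while type I takes 0.971% to 1.08% in controls and 0.567% to 0.605% in knockdowns.

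Per kilobase the order of the leading collagens changed as well. In controls COL1A1 was first at 984 RPKM, followed by COL6A3 at 832, COL1A2 at 683 and COL6A2 at 664 RPKM. In knockdowns COL6A3 was first at 906 RPKM, followed by COL6A2 at 849, COL6A1 at 640 and COL1A1 at 535 RPKM. These orders rest on 1 transcript length per gene. The SD of COL6A2, 160.2 RPKM in controls and 169 RPKM in knockdowns, was wider than its gap to COL1A2 in controls and to COL6A3 in knockdowns, so those neighbours did not differ beyond their spread.

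Genes that make, modify and bind collagen were read from the same fit, from 7 lists of 70 genes, of which 61 were tested. Of these, 32 were higher, 11 lower and 18 not called, with a median of 0.20 against -0.04 for all genes and 41.0% of all genes called. The list for modification and folding in the endoplasmic reticulum held 14 higher, 2 lower and 3 not called (median 0.36). It was led by the prolyl 3-hydroxylases P3H2, at 19.3 and 36.2 RPM on average (log2 0.90, limma adjusted p = 9.9e-06), and P3H1, at 185 and 343 RPM (log2 0.89, limma adjusted p = 1.2e-06), which the table lists as LEPREL1 and LEPRE1. The 2 called lower were TMEM38B, an ion channel of the reticulum (log2 -0.41, limma adjusted p = 0.024), and PLOD3, a lysyl hydroxylase (log2 -0.17, limma adjusted p = 0.033). The call of PLOD3 was lost under other scalings (adjusted p = 0.052 with library totals, 0.054 with median of ratios and 0.082 after quantile normalisation), with no intensity trend (0.124) and with the GC and length correction (-0.03). It was also lost without control replicate 1 or 3 or knockdown replicate 1 (-0.11) or 3. That of TMEM38B was lost without control replicate 2 or 3 or knockdown replicate 1 or 3, and with no intensity trend (adjusted p = 0.095).

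The secretion list, coat and receptor proteins that carry procollagen out of the reticulum, held 3 higher, 2 lower and 3 not called (median 0.04). This stands beside 48.6% of protein-coding genes called, and the list is short. SEC24D and KLHL12 were each higher by 0.22 (limma adjusted p = 0.0032 and 0.016), SEC13 was lower (log2 -0.25, limma adjusted p = 0.00049; -0.16 with the GC and length correction), and MIA2, listed as CTAGE5, was lower from 0.739 to 0.381 RPM (log2 -0.96, limma adjusted p = 0.030). The KLHL12 call was lost without knockdown replicate 3 (adjusted p = 0.056) and with no intensity trend (0.058). That of MIA2 was lost without control replicate 2 or 3 or knockdown replicate 1 or 3 (adjusted p from 0.087 to 0.094), with an offset of 5 reads (-0.60, adjusted p = 0.063) and with thinned reads (0.091). Of 6 genes tested for removal of the end propeptides, 3 were higher, none lower and 3 not called (median 0.34), near the 48.6% of protein-coding genes called. BMP1, the proteinase that cuts the C-terminal propeptide, went from 85.8 to 149.9 RPM (log2 0.80, limma adjusted p = 1.1e-06), and ADAMTS2, which cuts the N-terminal one, from 54.0 to 80.8 RPM (log2 0.58, limma adjusted p = 5.1e-05).

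The 5 lysyl oxidases, which crosslink collagen and elastin, split into 2 higher, 2 lower and 1 not called. Over all protein-coding genes tested, 48.6% were called, and a list of 5 genes is too short to set against that share. LOXL2 stood at 468 RPM in controls and 1111 RPM in knockdowns (log2 1.25, limma adjusted p = 5.6e-08) and LOX at 189 and 320.0 RPM (log2 0.76, limma adjusted p = 2.2e-07). LOXL4 fell from 82.4 to 53.2 RPM (log2 -0.62, limma adjusted p = 0.00063), and LOXL3 from 9.02 to 6.33 RPM (log2 -0.49, limma adjusted p = 0.024). The LOXL3 call was lost without control replicate 1 (-0.30, adjusted p = 0.065) or knockdown replicate 1 (0.088), with thinned reads (0.101) and with no intensity trend (0.086).

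Among 9 tested proteoglycans and glycoproteins of the fibril, 5 were higher, 3 lower and 1 not called (median 0.25), where 48.6% of protein-coding genes were called. SPARC, a collagen-binding glycoprotein, rose from 1831 ± 84 to 3825 ± 20 RPM (SD, n = 3; log2 1.06, limma adjusted p = 7.1e-08). ASPN, a small proteoglycan, was called higher from few reads, at 0.0333 to 0.119 RPM in controls and 0.493 to 0.982 RPM in knockdowns (log2 2.80, limma adjusted p = 0.00083). THBS2, a thrombospondin whose loss disturbs fibrils, fell from 101 to 57.6 RPM (log2 -0.81, limma adjusted p = 6.5e-07), and POSTN, which aids crosslinking, from 1422 to 1088 RPM (log2 -0.39, limma adjusted p = 3.3e-05).

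Of 8 tested receptors and uptake genes, 3 were higher, none lower and 5 not called, which is not above the 41.0% of all genes called. ITGA11, the integrin chain of fibroblasts that binds fibrillar collagen, rose from 68.0 to 191 RPM (log2 1.49, limma adjusted p = 1.8e-08), and MRC2, which takes up collagen fragments, from 579 to 791 RPM (log2 0.45, limma adjusted p = 0.00035). Of 6 tested collagen-cleaving enzymes, 2 were higher, 2 lower and 2 not called (median -0.06), where 48.6% of protein-coding genes were called. FAP and MMP2 were higher by 0.33 and 0.20 (limma adjusted p = 0.00015 and 0.0030), while CTSK and MMP14 were lower, at log2 values of -0.32 and -0.30 (limma adjusted p = 0.00027 and 0.00031). The interstitial collagenase MMP1 was at 3145 RPM in controls and 3060.3 RPM in knockdowns and was not called.

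**Figure D4:**
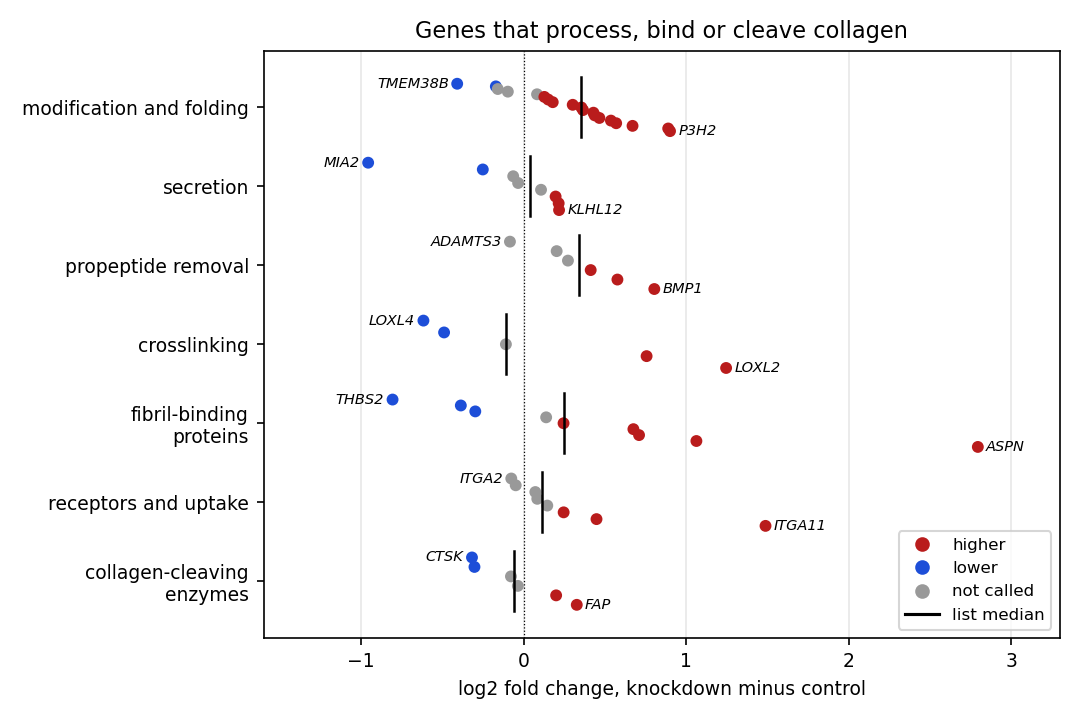
Log2 fold change (knockdown minus control) of the 61 tested genes that modify, secrete, trim, crosslink, bind or cleave collagen, 1 row per list; each point is a gene (red higher, blue lower, grey not called), and the black line is the list median. Points for modification and folding lie mostly to the right of 0, with 14 of 19 called higher, and the lysyl oxidases spread from -0.62 to 1.25.

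Many collagen messages carry sites for the miR-29 family, a textbook repressor of matrix genes, and the sites are shown to set them beside the directions above. The mature miRNAs share the seed at bases 2 to 8, in capitals, as given by RefSeq.
hsa-miR-29a-3p: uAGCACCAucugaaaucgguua
hsa-miR-29b-3p: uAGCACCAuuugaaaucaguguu
hsa-miR-29c-3p: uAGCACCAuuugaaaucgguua

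The letters that pair with this seed, TGGTGCT, occur in the 3′ UTR of 22 of the 33 tested collagens (66.7%) and of 2081 of 12622 tested protein-coding genes (16.5%), in the longest coding transcript of GENCODE 29. Median 3′ UTR lengths were 1037 and 1338.5 bases. The letters were present in 11 of the 14 collagens called higher, 4 of the 8 called lower and 7 of the 11 not called. Genes that fell and genes that rose both carry them, as the first site in each of 6 genes shows, with the letters that pair with the seed in capitals.
COL1A1: tggggagggaatcacTGGTGCTa
COL1A2: cttgaagaatgttgaTGGTGCTa
COL3A1: ttcaaaatgtctcaaTGGTGCTa
COL4A1: gctaatgtcacaacaTGGTGCTa
COL4A2: caggaagggccatttTGGTGCTt
COL5A3: agaatggggtgcattTGGTGCTg

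Of these, COL3A1 has 2 such matches, COL5A3 has 3, and the other 4 genes have 1 each. Mature miR-29 was not measured in these libraries, and a match of letters is not evidence of repression.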

How the data were processed

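Values of 6 libraries came from 1 deposited table of log2 values, which the authors made with Bowtie2 and featureCounts on hg19, per the submitters' processing notes; versions, annotation, scaling and strand setting are not given in the sources used here. The log2 values are log2 of reads plus 0.5 on an RPM scale (per 1000000 reads in genes), and undoing this gave whole reads for 100% of values (within 0.01 of a read), scaled by factors of 0.989 to 1.009. Columns were matched to samples by replicate number and siRNA name. In knockdown columns that name has a suffix of unstated meaning, so whether a single siRNA or a mix was used is not known.

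The deposited log2 values were fitted with limma 3.58.1 (R 4.3.3; lmFit, eBayes with intensity trend, group as sole term, two-sided), for 19048 genes with a mean of at least 10 normalised reads. P-values were Benjamini-Hochberg adjusted over all of them and called at 0.05. The read offset can shift fold changes of genes with few reads in either direction, since depth differs between groups. On simulated counts of 19048 genes, the fit called 88.5% of 200 genes changed by 1 (log2) in the true direction. Of its calls, 3.80% fell on unchanged genes. Every simulated gene had the same set spread beyond counting error, not estimated from these data, and no GC effect was simulated. These rates therefore do not carry over to the calls reported here. Chi-square values per degree of freedom between replicates ran from 2.87 to 11.0, so none was a duplicate. A count of 0 allows up to 3 reads.

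Members, classes and lists were chosen with earlier results of these data known. Values in every library are given for the 12 collagens called with at least 1 RPM and an absolute log2 change of at least 0.5, for the 8 highest per length (17 in all), and for others as the text shows. From each pathway list, the 2 largest rises and 2 largest falls among called genes are named; MMP1 was added after its values were seen. Sequences came from RefSeq (GRCh38.p14) and GENCODE 29 and were matched by symbol or gene ID; coordinates of the table's hg19 were not converted. The labels name no batch that separates libraries.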

Additional observations from a re-analysis of the deposited data

How the results depend on the processing

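Counts of called genes (all genes, collagens, classes and pathway lists) were recomputed under 19 other settings; counts of groups that do not overlap and of miR-29 matches were not. The 22 collagens called became 17 to 25, and 17 to 22 on leaving out 1 library at a time. Calls over all genes moved too, from 7805 of 19048 in the report. They were 5803 of 19048 without control replicate 3 and 8209 of 18546 with the GC and length correction. With no filter they were 10220 of 57819. Of the called genes, COL1A1, COL1A2, COL3A1, COL4A1, COL4A2, COL5A1, COL5A2, COL5A3, COL8A1, COL10A1, COL24A1 and COL27A1 kept call and direction in all 19, and COL8A2 and COL19A1 in all 18 that tested them. The 8 lower calls became 5 with a mean of at least 50 reads, since COL8A2, COL9A3 and COL19A1 were then not tested. Called basement membrane genes, 4 in the report, were 2 with no intensity trend and 2 to 3 without 1 library. Called FACIT genes, also 4, were 2 with a mean of at least 50 reads, where COL9A3 and COL19A1 were not tested, 2 with reads thinned to the smallest total and 1 to 4 without 1 library (1 without control replicate 3). Called genes among the others, 5 in the report, were 8 with no filter. The cause of the other moves was not tested.

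The labels do not say whether replicate numbers pair the libraries. Deviations of same-numbered libraries correlated at -0.149, -0.183 and 0.065, which cannot settle it with 3 libraries in each group. With a replicate block, 6454 genes were called over all genes, and 18 collagens, 12 higher and 6 lower, of which 2 were basement membrane genes and 2 FACIT genes. COL4A5, COL4A6, COL14A1 and COL22A1 lost their calls, as did PLOD3 (adjusted p = 0.078) and LOXL3 (0.065) among the named pathway genes.

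Signs turned in 5 collagens, none of them called in the report. COL6A3 was -0.11 after quantile normalisation. COL7A1 was 0.017 with library totals, 0.025 with median of ratios, 0.011 after quantile normalisation, 0.090 with the GC and length correction, and between -0.080 (without knockdown replicate 2) and 0.092 (without knockdown replicate 1) on leaving out 1 library. COL9A2 was 0.13 with the GC and length correction and ran from -0.22 (without control replicate 2) to 0.15 (without knockdown replicate 1). COL12A1 was -0.015 after quantile normalisation and -0.040 with the GC and length correction. COL28A1 ran from -0.033 (without knockdown replicate 2) to 0.63 (without knockdown replicate 1). The change in log2 ratio ran from -0.054 (without knockdown replicate 1) to 0.023 (without control replicate 2) for COL4A1 to COL4A2, and for COL6A3 to COL6A1 it was -0.30 without the first control library and 0.021 with control replicate 2 left out. Scalings moved the median of all genes from -0.04 to between -0.02 and -0.01. Depth left 10 collagens under the mean of 10 reads, and their differences could not be tested.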
